A study of Nicotiana tabacum with 9 samples.

Results

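Genes of cytokinin metabolism and of two-component signalling were followed in young leaves of tobacco (Nicotiana tabacum). They were taken as all genes whose deposited domain description names cytokinin, a response regulator receiver domain or a phosphotransfer (Hpt) domain, leaving out descriptions with a CCT domain. Of 69500 genes in the table, 141 matched, and 79 of them reached a value of 1 in 3 or more of the 9 libraries and were tested, among 33188 genes tested in all. At this minimum, the third-highest value was 1.21, 1.22 and 1.26 in the closest genes inside it and 0.97, 0.65 and 0.65 in the closest outside it. Of the 62 untested genes 18 were at 0 in all libraries. The 79 were 13 LOG genes, 5 cytokinin dehydrogenases, 16 histidine kinases that carry a receiver domain, 10 phosphotransfer proteins, 18 response regulators with a DNA-binding domain and 17 other receiver proteins. The table held 1 normalized expression value per gene and library, without counts, and all levels below are in that deposited unit. Whether the unit corrects for gene length is not stated, so levels were compared between libraries. Sums over a class weight each gene by its deposited value, and the genes named for high values are those highest in that unit.

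Leaves came from 3 genotypes, labelled M21, G27 and NC82, with 3 libraries each, collected in the squaring period, the stage of flower bud formation. NC82, a name borne by a flue-cured cultivar, served as the reference in a study of how NtAN3 shapes leaf size. How NtAN3 was changed in M21 or in G27, and whether a line is 1 clone, is not in the labels. Nor do they tell if replicates are different plants, and p-values therefore cover only sample-to-sample spread, which may be technical. Values are listed in the order of replicates 1, 2 and 3.

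Cytokinins are adenine-derived hormones that promote cell division and, in leaves, prolong growth and delay senescence. LOG enzymes release the active free base from its riboside monophosphate, and cytokinin dehydrogenases (CKX) break cytokinins down irreversibly. In Arabidopsis the signal is read by membrane histidine kinases with a CHASE domain, passed on by Hpt proteins, and received by response regulators. Type-B regulators bind DNA and activate transcription, while type-A regulators lack that domain, are induced by cytokinin and dampen the response.

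The summed value per library lay between 771390 and 790816, so the values had been scaled for depth. Depths relative to NC82 replicate 1 were estimated at 0.79 to 0.91 in M21, 0.86 to 1.05 in G27 and 0.98 to 1.22 in NC82. These estimates are rough. Each is the most frequent ratio over 50 to 92 genes, of which 13.4% to 34.7% lay within 5% of it. The SS18 family gene Nitab4.5_0007901g0050, from the family that holds AN3, stood at 5.0, 5.8 and 4.32 in M21 and at 760.1, 604.42 and 620.86 in G27, against 0.34, 0.25 and 0.25 in NC82. On the third principal component, which held 11.6% of the variance, M21 replicate 3 (16.0), G27 replicate 1 (21.2) and NC82 replicate 1 (22.9) scored highest in their genotypes, while M21 replicate 2 (-17.3) and G27 replicate 2 (-18.9) lay about as far off on the other side. The first 3 were set aside together as an alternative chosen from an earlier look at these data. Summed over 93 genes, 86 of them tested and 4 at 0 in all libraries, the chlorophyll a/b binding antenna proteins, a mesophyll marker, reached 33888 to 41361 in M21, 33686 to 39566 in G27 and 33346 to 38705 in NC82. Values without the 3 libraries set aside are given beside the counts they touch.

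Of the 79 genes, 3 rose and 12 fell in M21 against NC82, and again 3 rose and 12 fell in G27 against NC82, at a limma adjusted p under 0.05 over all genes tested. This is 19.0% of the genes in each comparison, against 24.3% of all tested genes called in M21 (13% up and 11.3% down) and 13.9% in G27 (7.87% up and 6.05% down). Both lines were set against the same NC82 libraries, so the calls of the lines are not independent. Across both comparisons, 8 genes fell in both lines, 1 rose in both, and 0 moved in opposite directions. The same count was not made over all tested genes, so it shows nothing particular to these 79. For 3 genes that fell, the minimum was reached only because NC82 was high, and without them 9 fell in M21, 10 in G27 and 6 in both. The median log2 change was -0.03 in M21 and -0.06 in G27, against 0.035 and 0.047 over all tested genes. The ranges of the line and NC82 did not overlap for 11 higher and 14 lower genes in M21 and for 4 higher and 23 lower genes in G27, against 40.3% and 30.6% of all tested genes. Without M21 replicate 3, G27 replicate 1 and NC82 replicate 1, 3 genes rose and 7 fell in M21, and 1 rose and 11 fell in G27.

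Hormone metabolism held 8 of the 15 calls in M21 and 12 of the 15 in G27. Of the 18 metabolism genes, 2 rose and 6 fell in M21 (44.4% called), and 2 rose and 10 fell in G27 (66.7% called). Of the 61 two-component genes, 1 rose and 6 fell in M21 (11.5% called), and 1 rose and 2 fell in G27 (4.92% called). Over all tested genes 24.3% were called in M21 and 13.9% in G27. Without the 3 genes that passed only through NC82, 5 metabolism genes fell in M21 and 9 in G27. Of the two-component genes, 4 then fell in M21 and 1 in G27. Without the 3 libraries set aside, 3 metabolism genes rose and 3 fell in M21, and 1 rose and 9 fell in G27. With a median-ratio scaling of the libraries, 0 of the 79 genes rose in G27 and 13 fell. Over all tested genes that scaling gave 4045 rises and 4329 falls in M21 and 2313 and 2543 in G27, against 4326 and 3738 in M21 and 2612 and 2008 in G27 as deposited, so which direction held more genes depends on the scaling. Tobacco is an allotetraploid with near-identical gene copies, and how reads were divided between copies is not known.

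Summed levels of marker lists for other cell types differed in range between genotypes, and their part in these results was not tested. These lists, and the antenna list above, rest on domain names in the descriptions. Their genes are not proved to mark a cell type in tobacco. Sieve element occlusion proteins, which mark phloem, summed to 8.42 to 13.4 in M21, 21.13 to 27.14 in G27 and 25.65 to 37.25 in NC82 over 8 genes, of which 5 were tested and 0 were at 0 throughout. Laccases, which act in lignifying tissue, summed to 17.85 to 20.69 in M21, 21.06 to 29.97 in G27 and 26.52 to 35.51 in NC82 over 48 genes, of which 12 were tested and 5 were at 0 in all libraries. Minichromosome maintenance proteins, which mark dividing cells, summed to 97.73 to 112.7 in M21, 115.01 to 136.76 in G27 and 86.79 to 98.46 in NC82 over 22 genes. Of these 22, 20 were tested and 0 were at 0 throughout. KNOX homeobox genes, a shoot meristem list, summed to 127.73 to 135.86 in M21, 125.46 to 134.07 in G27 and 117.13 to 120.23 in NC82 over 21 genes, of which 6 were tested and 9 were at 0 in all libraries.

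**Figure D1:**
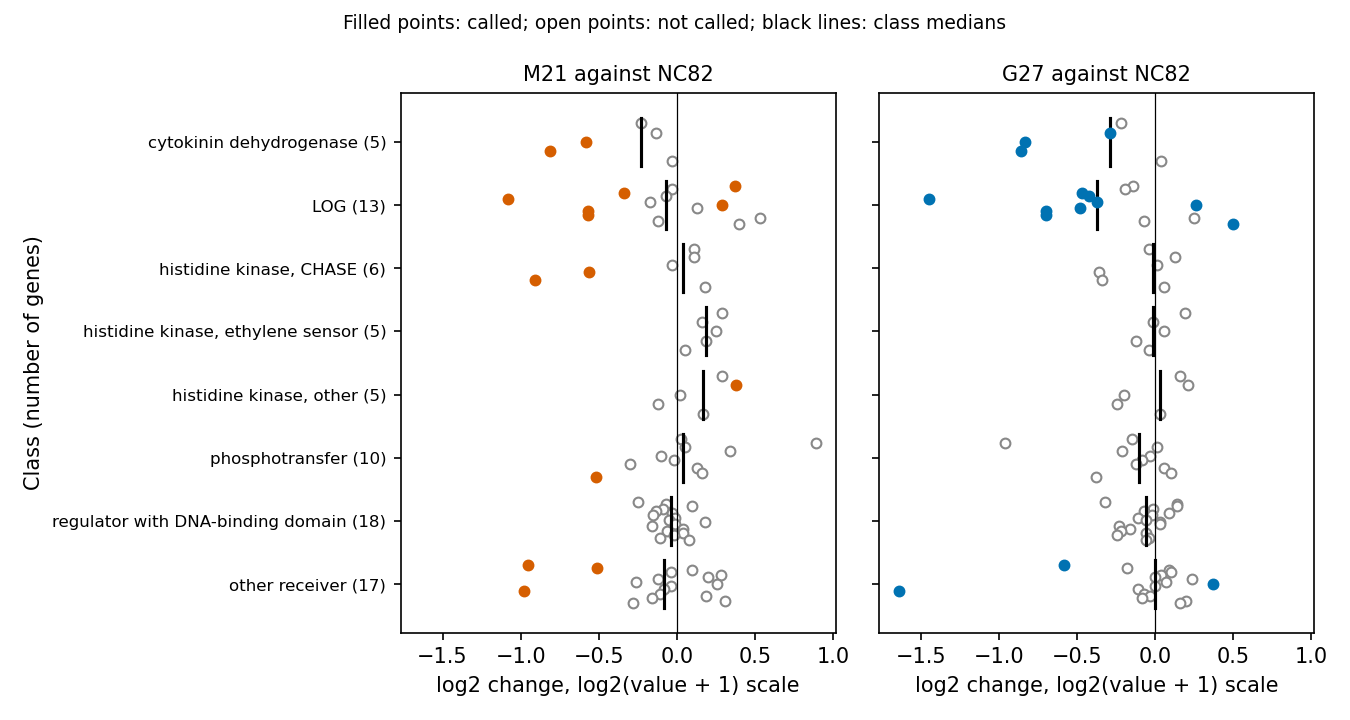
Log2 change of each of the 79 genes on the log2(value + 1) scale in M21 against NC82 (left) and G27 against NC82 (right), in rows by class with the number of genes. Filled points passed the limma test at an adjusted p under 0.05, open points did not, and black lines are class medians. The CKX and LOG rows hold most filled points in G27, and the row of regulators with a DNA-binding domain holds 0 in either panel.

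Of the 5 tested cytokinin dehydrogenases, which degrade the hormone, 2 fell in both lines, 1 more fell in G27, and 0 rose. Among all tested genes, 11.3% fell in M21 and 6.05% fell in G27. In all, 16 genes had the cytokinin dehydrogenase description. The 11 untested genes did not reach the minimum, and their highest value in any library was 0.26. Summed over the 5 genes, the deposited values were 23.16, 24.91 and 22.99 in M21 and 22.08, 21.44 and 22.11 in G27, against 31.33, 29.76 and 30.22 in NC82. Each sum in either line was below each NC82 sum. In bulk leaf RNA, fewer cells of a type and less RNA per cell cannot be told apart in this or any later result.

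Nitab4.5_0005779g0060 had 3.45, 3.46 and 3.01 in M21 and 3.03, 3.15 and 3.27 in G27, against 6.65, 6.56 and 6.44 in NC82. The lines overlapped each other, and both lay well below NC82. On the log2(value + 1) scale, on which changes of low genes are understated, it fell by 0.81 (SE 0.08) in M21 and by 0.86 (SE 0.08) in G27 (limma adjusted p = 4e-05 and 3.3e-05). Nitab4.5_0001861g0120 had 1.73, 2.27 and 1.51 in M21 and 1.4, 1.35 and 1.36 in G27, against 3.64, 3.17 and 2.89 in NC82. Again no library of either line reached the NC82 range. It fell by 0.58 (SE 0.12) in M21 and by 0.83 (SE 0.12) in G27 (limma adjusted p = 0.0039 and 0.00059). The M21 call was lost without the 3 libraries set aside (limma adjusted p = 0.057).

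Nitab4.5_0000446g0210 had 11.41, 12.68 and 11.69 in M21 and 10.49, 9.8 and 11.21 in G27, against 13.76, 12.55 and 12.98 in NC82. The M21 range touched that of NC82, and the G27 range lay below it. It fell by 0.29 (SE 0.08) in G27 (limma adjusted p = 0.026), a call that was lost without G27 replicate 1 or 2 or any 1 of the NC82 libraries (limma adjusted p = 0.055 to 0.082), and without the 3 set aside (limma adjusted p = 0.15). In M21 its log2 change was -0.13 (limma adjusted p = 0.27). Nitab4.5_0000341g0010 had 4.12, 4.0 and 3.95 in M21 and 4.24, 3.98 and 4.0 in G27, against 4.61, 4.84 and 5.24 in NC82. All 6 values of the lines lay below the NC82 range, but the log2 changes of -0.23 in M21 and -0.22 in G27 did not pass the test (limma adjusted p = 0.05, just above the threshold before rounding, and 0.092). It passed in M21 with either smaller pseudocount or a median-ratio scaling (limma adjusted p = 0.023 to 0.049), and in G27 with a median-ratio scaling (limma adjusted p = 0.032). The last gene, Nitab4.5_0008947g0010, had 2.45, 2.5 and 2.83 in M21, 2.92, 3.16 and 2.27 in G27 and 2.67, 2.64 and 2.67 in NC82, so the genotypes overlapped.

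**Figure D2:**
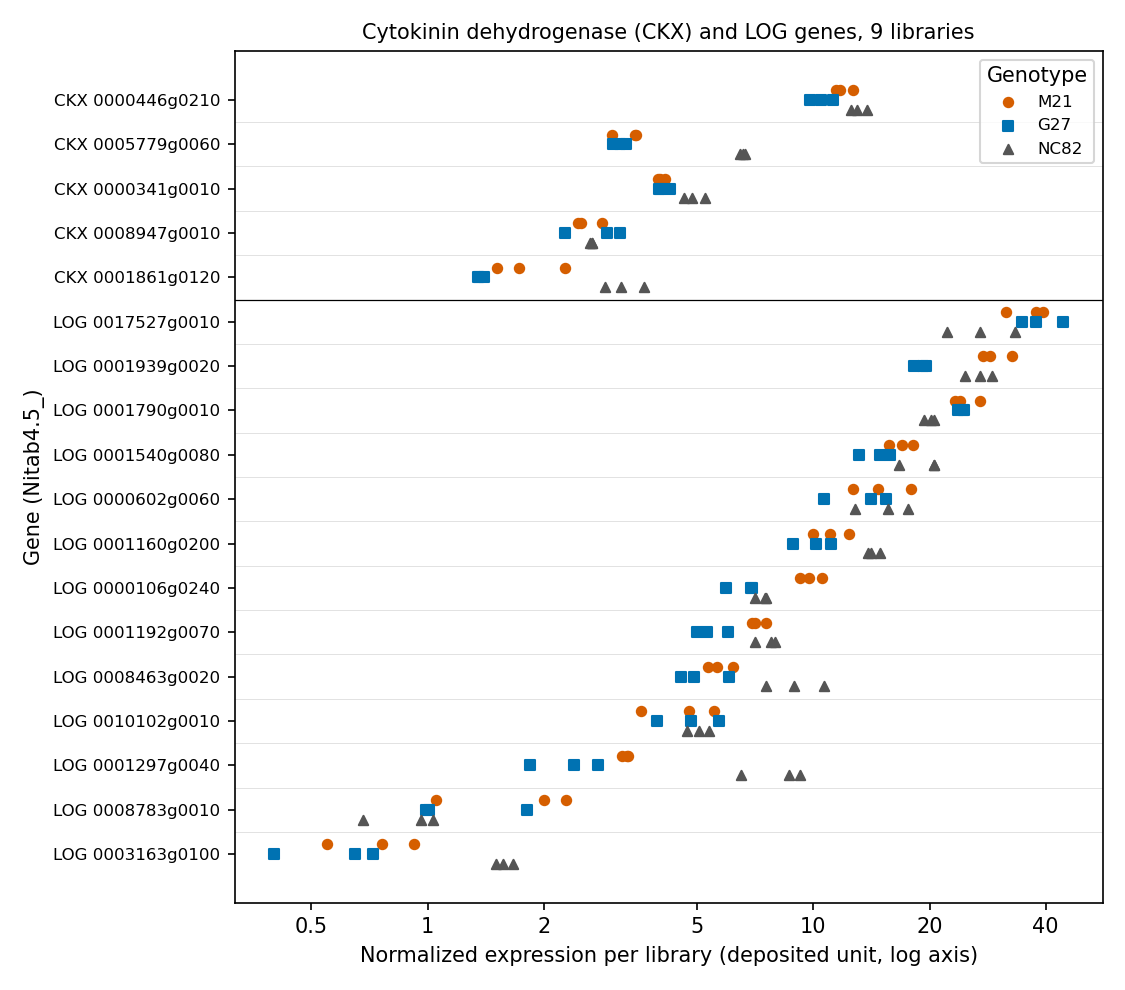
Normalized expression of the 5 CKX genes (top) and the 13 LOG genes (bottom) in each of the 9 libraries, in the deposited unit on a log axis, with M21 as circles, G27 as squares and NC82 as triangles. For CKX gene Nitab4.5_0005779g0060 the 6 values of the lines lie between 3.01 and 3.46, below the NC82 values of 6.44 to 6.65.

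LOG genes, which act in the opposite direction by releasing active cytokinin, moved both ways. Of 19 genes with this description, 13 were tested, with 2 up and 4 down in M21 and 2 up and 7 down in G27. The shares called were 46.2% in M21 and 69.2% in G27, against 24.3% and 13.9% of all tested genes. The same 4 genes that fell in M21 also fell in G27. Without the 3 libraries set aside, LOG and CKX genes together held 3 rises and 3 falls in M21. The 6 untested genes had values of at most 0.43 in any library. Summed over the 13 genes, the deposited values were 159.75, 176.16 and 164.72 in M21 and 155.9, 140.12 and 143.06 in G27, against 166.52, 165.68 and 156.71 in NC82. The M21 sums overlapped those of NC82, and all G27 sums were below them.

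The LOG gene with the largest log2 change was Nitab4.5_0001297g0040. It had 3.31, 3.19 and 3.29 in M21 and 2.4, 2.76 and 1.84 in G27, against 6.49, 8.62 and 9.25 in NC82. The 3 genotypes did not overlap. It fell by 1.08 (SE 0.13) in M21 and by 1.45 (SE 0.13) in G27 (limma adjusted p = 0.00019 and 3.5e-05). Nitab4.5_0008463g0020 had 5.64, 6.19 and 5.32 in M21 and 6.03, 4.89 and 4.53 in G27, against 10.63, 8.89 and 7.52 in NC82. Both lines lay below NC82 and overlapped each other. This gene fell by 0.57 (SE 0.13) in M21 and by 0.70 (SE 0.13) in G27 (limma adjusted p = 0.0072 and 0.0032).

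Nitab4.5_0003163g0100 had 0.55, 0.92 and 0.76 in M21 and 0.72, 0.4 and 0.65 in G27, against 1.66, 1.5 and 1.57 in NC82. It reached the minimum of the test only through NC82, so it had to be lower in the lines. Without it, 3 LOG genes fell in M21 and 6 in G27. It fell by 0.57 in M21 and by 0.70 in G27 (limma adjusted p = 0.0067 and 0.0029), and the M21 call was lost without the 3 libraries set aside (limma adjusted p = 0.052). Nitab4.5_0001160g0200 had 11.02, 12.39 and 9.97 in M21 and 8.86, 10.16 and 11.11 in G27, against 14.91, 14.09 and 13.82 in NC82. Neither line overlapped NC82. It fell by 0.34 (SE 0.10) in M21 and by 0.47 (SE 0.10) in G27 (limma adjusted p = 0.028 and 0.0075). Its M21 call was lost without M21 replicate 1 or 3 or any 1 of the NC82 libraries (limma adjusted p = 0.055 to 0.11), and without the 3 set aside (limma adjusted p = 0.12).

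A further 3 LOG genes fell in G27 and did not pass the test in M21. Nitab4.5_0001939g0020 had 27.51, 32.77 and 28.73 in M21 and 19.25, 18.24 and 19.54 in G27, against 24.78, 29.01 and 27.03 in NC82. G27 lay below both other genotypes, which overlapped. It fell by 0.48 (SE 0.08) in G27 (limma adjusted p = 0.0029), and its log2 change in M21 was 0.13 (limma adjusted p = 0.29). Nitab4.5_0001192g0070 had 7.07, 7.52 and 6.95 in M21 and 6.0, 5.3 and 4.98 in G27, against 7.05, 7.93 and 7.75 in NC82. The pattern of ranges was that of the gene before. It fell by 0.42 (SE 0.08) in G27 (limma adjusted p = 0.0065), with a log2 change of -0.07 in M21 (limma adjusted p = 0.61). Nitab4.5_0001540g0080 had 18.1, 16.97 and 15.71 in M21 and 15.83, 14.87 and 13.15 in G27, against 16.71, 20.54 and 20.57 in NC82. It fell by 0.37 (SE 0.10) in G27 (limma adjusted p = 0.03), and the G27 range lay below that of NC82. This call was lost without G27 replicate 2 or 3 or NC82 replicate 2 or 3 (limma adjusted p = 0.058 to 0.12), and with no filter on low values or only the libraries compared (limma adjusted p = 0.052 to 0.053).

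The rises among LOG genes were as follows. Nitab4.5_0000106g0240 had 10.52, 9.73 and 9.24 in M21 and 6.92, 6.87 and 5.93 in G27, against 7.48, 7.05 and 7.53 in NC82. M21 lay above both other genotypes, and G27 lay just below NC82. It rose by 0.37 (SE 0.08) in M21 (limma adjusted p = 0.007), and its log2 change in G27 was -0.14 (limma adjusted p = 0.31). Nitab4.5_0001790g0010 had 24.02, 26.96 and 23.22 in M21 and 24.42, 24.58 and 23.72 in G27, against 20.19, 19.38 and 20.56 in NC82. Both lines lay above NC82. It rose by 0.29 (SE 0.07) in M21 and by 0.26 (SE 0.07) in G27 (limma adjusted p = 0.013 and 0.032). The G27 call was lost when any 1 of the 6 libraries compared was left out (limma adjusted p = 0.059 to 0.13), and the M21 call without NC82 replicate 2 (limma adjusted p = 0.061). A median-ratio scaling ended both calls (limma adjusted p = 0.055 in M21 and 0.16 in G27), and leaving out the 3 libraries set aside ended that in G27 (limma adjusted p = 0.1).

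Nitab4.5_0017527g0010 had 31.5, 39.31 and 37.76 in M21 and 44.36, 34.71 and 37.74 in G27, against 33.35, 26.98 and 22.23 in NC82. G27 lay above NC82, and M21 overlapped it. It rose by 0.50 (SE 0.14) in G27 (limma adjusted p = 0.041), a call lost without G27 replicate 1 or 3 or NC82 replicate 2 or 3 (limma adjusted p = 0.087 to 0.14), and with no filter on low values, a median-ratio scaling or only the libraries compared (limma adjusted p = 0.062 to 0.085). In M21 its log2 change was 0.40 (limma adjusted p = 0.068), and it passed without NC82 replicate 1 (limma adjusted p = 0.014) or without the 3 libraries set aside (limma adjusted p = 0.022). The other LOG genes were not called. Nitab4.5_0008783g0010 had 1.05, 2.0 and 2.28 in M21 and 1.81, 1.01 and 0.99 in G27, against 0.96, 1.03 and 0.68 in NC82, with a log2 change of 0.53 in M21 (limma adjusted p = 0.068) that passed without M21 replicate 1 (limma adjusted p = 0.015). Its M21 values lay above those of NC82, and G27 overlapped both. Nitab4.5_0000602g0060 had 12.67 to 17.92 in M21, 10.65 to 15.38 in G27 and 12.85 to 17.62 in NC82. Nitab4.5_0010102g0010 had 3.57 to 5.54 in M21, 3.92 to 5.68 in G27 and 4.69 to 5.35 in NC82. For both, the 3 genotypes overlapped.

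**Figure D3:**
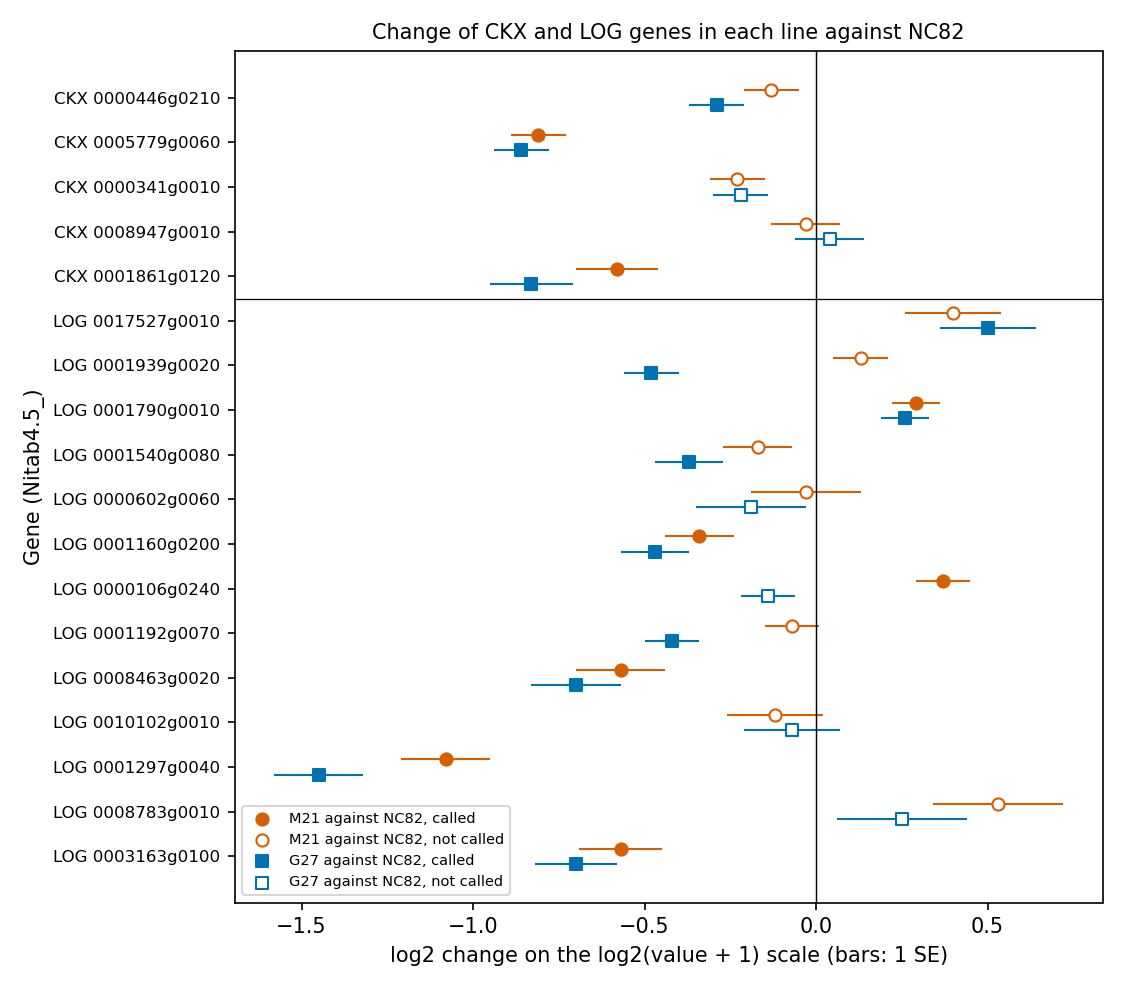
Log2 change with 1 SE on the log2(value + 1) scale for the 5 CKX genes (top) and the 13 LOG genes (bottom), with M21 against NC82 as circles and G27 against NC82 as squares. Filled points passed the limma test and open points did not. The LOG gene Nitab4.5_0001297g0040 lies farthest left, at -1.08 in M21 and -1.45 in G27.

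Cytokinin glycosidases are described as enzymes that act on stored cytokinin conjugates. All 6 genes with this description stayed under the minimum, with at most 0.32 in any library, and were not tested.

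All 6 histidine kinases with a CHASE domain, the cytokinin receptors, were tested, and 2 of them fell in M21. This is 33.3% called, against 24.3% of all tested genes, and 1 of the 2 passed the minimum only through NC82. In G27, where 13.9% of all tested genes were called, limma called 0 of the 6, with 2 at an unadjusted p under 0.05. Nitab4.5_0003884g0020 had 0.61, 0.44 and 0.47 in M21 and 1.78, 1.03 and 1.0 in G27, against 1.89, 2.0 and 1.63 in NC82. M21 lay below both other genotypes, while G27 replicate 1 reached the NC82 range. It fell by 0.91 (SE 0.14) in M21 (limma adjusted p = 0.00081). In G27 its log2 change was -0.34 (limma adjusted p = 0.15), and it passed without G27 replicate 1 (limma adjusted p = 0.027). Nitab4.5_0002951g0010 had 0.83, 0.42 and 0.67 in M21 and 1.14, 0.77 and 0.71 in G27, against 1.56, 1.39 and 1.26 in NC82. Both lines lay below NC82. It too reached the minimum only through NC82, so a fall was fixed by that choice. The log2 change was -0.56 (SE 0.13) in M21 (limma adjusted p = 0.011), a call lost without the 3 libraries set aside (limma adjusted p = 0.06). In G27 its log2 change was -0.36 (limma adjusted p = 0.11).

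The other 4 CHASE kinases were not called in any comparison. Nitab4.5_0001701g0010 had 11.48, 8.26 and 11.5 in M21 and 11.42, 10.09 and 10.06 in G27, against 10.42, 9.71 and 8.44 in NC82. Nitab4.5_0001774g0030 had 7.07, 5.72 and 7.23 in M21 and 7.1, 7.0 and 6.56 in G27, against 7.4, 6.69 and 6.39 in NC82. In both the genotypes overlapped, with log2 changes between -0.03 and 0.13 against NC82. The last of them, Nitab4.5_0000996g0050 and Nitab4.5_0011720g0010, had log2 changes of 0.11 and 0.18 in M21 and of -0.04 and 0.06 in G27, with limma adjusted p of at least 0.19.

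Other histidine kinases with a receiver domain included ethylene sensors, which read ethylene and not cytokinin. Of 11 matching ethylene sensor genes, 5 were tested and 0 were called in any comparison with limma, while 2 had an unadjusted p under 0.05 in M21 and 0 in G27. Their log2 changes ran between 0.05 and 0.29 in M21 and between -0.12 and 0.19 in G27. Over all tested genes 24.3% were called in M21, 13.9% in G27 and 11.9% between the lines. Another 5 tested kinases had descriptions that name neither a CHASE domain nor an ethylene sensor, and what they sense was not tested. Among them, the GAF-domain hybrid kinase Nitab4.5_0000639g0220 had 3.88, 3.61 and 3.34 in M21 and 3.17, 3.48 and 2.7 in G27, against 2.23, 2.74 and 2.69 in NC82. M21 lay above NC82, and G27 overlapped both. It rose by 0.38 (SE 0.10) in M21 (limma adjusted p = 0.02), a call lost without M21 replicate 1 or NC82 replicate 1 (limma adjusted p = 0.07 to 0.082) and without the 3 libraries set aside (limma adjusted p = 0.09). Nitab4.5_0006096g0020, whose description also names ribosomal protein L16, had 5.53 to 7.8 in M21, 5.09 to 7.36 in G27 and 4.77 to 6.19 in NC82 and was not called.

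Phosphotransfer proteins, which carry the phosphate from receptor to nucleus, had 10 tested genes out of 17 that matched. In M21 1 of them fell, and in G27 limma called 0, with 1 at an unadjusted p under 0.05. Nitab4.5_0008107g0010 had 1.89, 1.58 and 1.43 in M21 and 1.43, 2.1 and 2.21 in G27, against 2.25, 3.25 and 2.88 in NC82. Both lines lay below NC82. It fell by 0.52 (SE 0.14) in M21 (limma adjusted p = 0.019), a call lost without M21 replicate 3 or NC82 replicate 2 or 3 (limma adjusted p = 0.06 to 0.082). In G27 its log2 change was -0.38 (limma adjusted p = 0.1).

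The other phosphotransfer genes did not pass the test. Nitab4.5_0000059g0300 had 35.94, 38.87 and 39.02 in M21 and 35.68, 31.7 and 32.84 in G27, against 38.74, 35.71 and 37.09 in NC82, with log2 changes of 0.03 in M21 and -0.15 in G27. Nitab4.5_0000664g0130 had 18.96 to 24.74 in M21, 18.0 to 26.22 in G27 and 19.21 to 21.4 in NC82. Nitab4.5_0003070g0040 had 10.11 to 12.06 in M21, 9.43 to 11.85 in G27 and 8.99 to 10.09 in NC82. In the first of these G27 lay just below NC82, in the last M21 lay just above it, and limma adjusted p against NC82 was at least 0.2 in all 3. Nitab4.5_0000239g0110, chosen after its values were seen, was listed at 0, 5.96 and 5.69 in M21, at 0 in all 3 G27 libraries and at 0, 0 and 6.3 in NC82. It was either at 0 or above 5 in libraries of the same genotype.

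The DNA-binding response regulators, whose Arabidopsis type-B relatives are the transcriptional activators of the pathway, showed no call. Of 26 matching genes 18 were tested, and limma called 0 in each of the 3 comparisons, with 0 at an unadjusted p under 0.05 as well. Over all tested genes the shares called were 24.3% in M21, 13.9% in G27 and 11.9% between the lines. Log2 changes ran between -0.25 and 0.18 in M21 and between -0.32 and 0.14 in G27, with medians of -0.04 and -0.06. Nitab4.5_0004658g0020 had 13.14, 9.86 and 13.2 in M21 and 13.01, 8.46 and 9.6 in G27, against 13.95, 11.86 and 10.93 in NC82. Nitab4.5_0002803g0020 had 7.09 to 8.71 in M21, 7.37 to 9.6 in G27 and 7.59 to 8.41 in NC82. Nitab4.5_0003100g0090 had 5.68 to 7.13 in M21, 5.5 to 7.14 in G27 and 6.95 to 7.88 in NC82. The 3 genotypes overlapped in all of these. Summed over the 18 genes, the values were 70.02, 59.25 and 72.92 in M21, 71.4, 65.57 and 60.11 in G27 and 73.31, 68.55 and 68.72 in NC82.

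The 17 other receiver proteins, out of 28 matching genes, have descriptions that name the receiver domain and no other function. Type-A regulators would fall here, but the descriptions do not separate them from other short receiver proteins. In M21 3 fell and 0 rose, and in G27 2 fell and 1 rose. This is 17.6% called in each comparison, against 24.3% and 13.9% of all tested genes. Without the gene that passed the minimum only through NC82, 2 fell in M21 and 1 in G27. In this class 10 of 17 genes (58.8%) had their highest value of each genotype in the library set aside, against 17.0% of all tested genes. The share was 31.2% among histidine kinases, 3 of 10 among phosphotransfer proteins, 33.3% among DNA-binding regulators, 7.7% among LOG genes, 0 among cytokinin dehydrogenases and 31.6% over the 79.

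Nitab4.5_0000026g0340 had 3.37, 3.41 and 3.21 in M21 and 4.79, 4.64 and 4.29 in G27, against 9.22, 5.9 and 7.21 in NC82. The genotypes did not overlap, with M21 lowest. It fell by 0.95 (SE 0.12) in M21 and by 0.58 (SE 0.12) in G27 (limma adjusted p = 0.00031 and 0.0091), and both calls held under every alternative tried. Nitab4.5_0003786g0010 had 0.2, 1.32 and 2.0 in M21 and 0.54, 0 and 0.38 in G27, against 2.45, 4.4 and 2.45 in NC82. Both lines lay below NC82, and M21 values were widely spread. This gene as well passed the minimum only through NC82. It fell by 0.98 (SE 0.31) in M21 and by 1.64 (SE 0.31) in G27 (limma adjusted p = 0.041 and 0.0045). The M21 call was lost without M21 replicate 1 or 2 or any 1 of the NC82 libraries (limma adjusted p = 0.052 to 0.15) and with either smaller pseudocount, with no filter on low values or with only the libraries compared (limma adjusted p = 0.051 to 0.15).

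Nitab4.5_0000515g0030 had 1.09, 0.71 and 1.27 in M21 and 1.61, 1.3 and 1.69 in G27, against 2.26, 2.03 and 1.39 in NC82. M21 lay below both other genotypes, which overlapped. It fell by 0.51 (SE 0.15) in M21 (limma adjusted p = 0.026), a call lost without M21 replicate 1 or 2 or NC82 replicate 1 or 2 (limma adjusted p = 0.056 to 0.091) and without the 3 libraries set aside (limma adjusted p = 0.08). Nitab4.5_0002312g0040 had 4.78, 6.4 and 5.37 in M21 and 6.71, 5.66 and 5.66 in G27, against 4.85, 4.22 and 4.2 in NC82. G27 lay above NC82, and M21 overlapped both. It rose by 0.37 (SE 0.11) in G27 (limma adjusted p = 0.044), and the call was lost without any 1 of the G27 libraries or NC82 replicate 2 or 3 (limma adjusted p = 0.062 to 0.15) and with a median-ratio scaling (limma adjusted p = 0.096), no filter on low values (limma adjusted p = 0.077) or without the 3 set aside (limma adjusted p = 0.13).

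The 3 receiver proteins with the highest deposited values were not called. Nitab4.5_0001364g0020 had 15.83, 15.68 and 21.17 in M21 and 17.97, 11.73 and 16.03 in G27, against 17.96, 14.32 and 13.25 in NC82. In each genotype the library set aside was the highest. Nitab4.5_0000754g0020 had 8.23, 7.24 and 9.3 in M21 and 7.83, 6.59 and 6.16 in G27, against 6.96, 6.71 and 6.14 in NC82. Nitab4.5_0007768g0020 had 9.69, 7.48 and 10.57 in M21 and 8.34, 7.55 and 7.36 in G27, against 8.23, 8.21 and 7.38 in NC82. For Nitab4.5_0000754g0020 M21 lay above NC82, and otherwise the genotypes overlapped. In M21 the log2 changes of these last genes were 0.28 and 0.19 (limma adjusted p = 0.081 and 0.26), and both passed without M21 replicate 2 (limma adjusted p = 0.04 and 0.031).

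The count of two-component genes called in M21 was sensitive to single libraries. It was 7 with all libraries, 4 without M21 replicate 1, NC82 replicate 1 or NC82 replicate 2, and 10, of which 6 rose, without M21 replicate 2. Without the 3 libraries set aside, 0 rose and 4 fell. Between the lines the count was 1 with all libraries, 3 without M21 replicate 1 or 2, and 0 without M21 replicate 3.

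**Figure D4:**
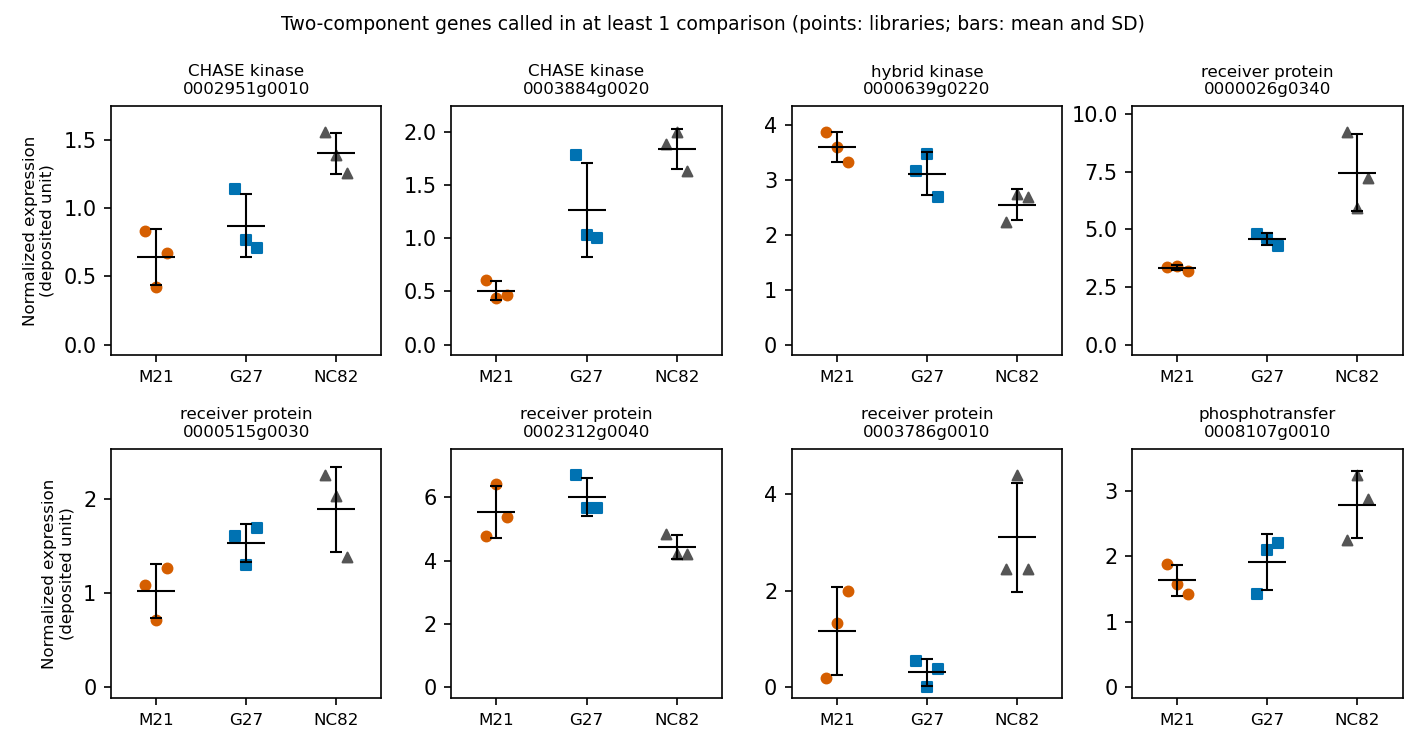
Normalized expression, in the deposited unit, of the 8 two-component genes called in at least 1 comparison, with points for libraries and bars for the mean and SD of 3 libraries, in the order M21, G27 and NC82. Receiver protein Nitab4.5_0000026g0340 separates the genotypes, at 3.21 to 3.41 in M21, 4.29 to 4.79 in G27 and 5.9 to 9.22 in NC82.

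M21 was also set against G27, which tests the difference between the lines directly. Of the 79 genes 3 were higher and 1 was lower in M21 (5.06%), against 11.9% of all tested genes called, 5.47% up and 6.4% down. Without the 3 libraries set aside, 4 were higher and 0 lower. Ranges did not overlap for 11 higher and 5 lower genes, against 28.6% of all tested genes. The 3 higher genes were all LOG genes already described. Nitab4.5_0001939g0020 was higher in M21 by 0.61 on the log2 scale (SE 0.08, limma adjusted p = 0.0013), and Nitab4.5_0000106g0240 by 0.52 (SE 0.08, limma adjusted p = 0.0028). Nitab4.5_0001192g0070 was higher by 0.35 (SE 0.08, limma adjusted p = 0.021), a call that ended when replicate 1 or 2 of M21, or 2 or 3 of G27, was left out (limma adjusted p = 0.057 to 0.079). The CHASE kinase Nitab4.5_0003884g0020 was lower in M21 (log2 change -0.58, SE 0.14, limma adjusted p = 0.022), a call that ended when M21 replicate 2, M21 replicate 3 or G27 replicate 1 was left out (limma adjusted p = 0.061 to 0.066) and without the 3 libraries set aside (limma adjusted p = 0.15). The LOG gene Nitab4.5_0001297g0040, lowest in G27, did not pass between the lines (log2 change 0.36, limma adjusted p = 0.11). For the CKX genes limma called 0 of 5 between the lines, with 0 at an unadjusted p under 0.05, and their log2 changes ran between -0.07 and 0.25.

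Other genes of the pathway were taken from lists of descriptions outside the 79, of which 36 genes were tested. In M21 against NC82 7 rose and 9 fell (44.4%, against 24.3% of all tested genes), and in G27 against NC82 4 rose and 2 fell (16.7%, against 13.9%). In M21 against G27 2 were higher and 3 lower (13.9%, against 11.9%). The shares in G27 and between the lines are near those of all genes. The rises in both lines include Nitab4.5_0000084g0220, which passed the minimum only through the lines. The M21 count was 9 without M21 replicate 1 or NC82 replicate 2 and 10 without NC82 replicate 3. It was 12, with 4 up and 8 down, without the 3 libraries set aside. The G27 count was 3 without NC82 replicate 3 and 2 without the 3 libraries set aside. The count between the lines was 1 to 3 when any of their libraries was left out.

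The first lists hold genes upstream of cytokinin activation. Isopentenyltransferases that modify transfer RNA are a source of cis-zeatin type cytokinins. The 4 tested genes of this list were taken by domain description alone, and whether each is of that kind was not tested. Of these 4 isopentenyltransferases, 2 fell in M21, against 11.3% of all tested genes. In G27, where 13.9% of all tested genes were called, limma called 0 of these 4, with 1 at an unadjusted p under 0.05. Nitab4.5_0000035g0040 had 19.92, 20.71 and 18.95 in M21 and 24.03, 22.97 and 23.18 in G27, against 24.67, 25.95 and 28.09 in NC82. M21 lay below both other genotypes, and it fell by 0.38 (SE 0.07) in M21 (limma adjusted p = 0.0025). All 4 adenosine kinases, which phosphorylate adenosine and cytokinin ribosides, fell in M21, and 2 were lower in M21 than in G27. Over all tested genes 11.3% fell in M21, and 6.4% were lower in M21 than in G27. Limma called 0 of them in G27 against NC82, with 0 at an unadjusted p under 0.05. Nitab4.5_0002130g0030 had 28.12, 30.08 and 26.14 in M21 and 31.67, 35.55 and 31.69 in G27, against 33.36, 37.49 and 38.57 in NC82. It fell by 0.36 (SE 0.08) in M21 (limma adjusted p = 0.0086). Nitab4.5_0000101g0290 had 24.17, 24.06 and 23.91 in M21 and 29.27, 35.03 and 30.1 in G27, against 28.49, 30.77 and 31.88 in NC82. M21 lay below both, with a log2 change of -0.37 (SE 0.08) against G27 (limma adjusted p = 0.013) and of -0.32 against NC82 (limma adjusted p = 0.013), the last of which was lost without NC82 replicate 3 (limma adjusted p = 0.053).

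Adenine phosphoribosyltransferases, which convert free bases to nucleotides, had 1 of 3 tested genes down in G27, against 6.05% of all tested genes. In M21 limma called 0 of them, with 0 at an unadjusted p under 0.05. Nitab4.5_0002042g0060 had 1.6, 1.59 and 1.45 in M21 and 1.05, 1.14 and 1.52 in G27, against 2.12, 1.65 and 2.54 in NC82. G27 lay below NC82, and M21 lay below NC82 as well and overlapped G27. It fell by 0.47 (SE 0.13) in G27 (limma adjusted p = 0.031), lost without G27 replicate 1 or 2 or NC82 replicate 1 or 3 (limma adjusted p = 0.077 to 0.13) and under 3 other settings (limma adjusted p = 0.052 to 0.19). Of 6 equilibrative nucleoside transporters, which move nucleosides across membranes, 2 rose in M21 and 1 in G27 (33.3% and 16.7%). Over all tested genes 13% rose in M21 and 7.87% in G27. Both transporter counts include the next gene, whose direction in M21 was fixed by the minimum. Nitab4.5_0000084g0220 had 1.22, 1.33 and 1.3 in M21 and 1.37, 1.07 and 0.92 in G27, against 0.54, 0.44 and 0.6 in NC82. Both lines lay above NC82, and it reached the minimum only through them, which fixed its direction in M21. It rose by 0.58 (SE 0.11) in M21 and by 0.47 (SE 0.11) in G27 (limma adjusted p = 0.0035 and 0.018). The G27 call was lost without G27 replicate 1 or NC82 replicate 2 (limma adjusted p = 0.073 to 0.075) and without the 3 set aside (limma adjusted p = 0.15). Nitab4.5_0004039g0030 had 25.04, 23.88 and 24.81 in M21, against 19.6, 21.28 and 20.46 in G27, and was higher in M21 by 0.25 on the log2 scale (limma adjusted p = 0.031), a call that ended when any 1 of the M21 libraries, or replicate 1 or 3 of G27, was left out (limma adjusted p = 0.051 to 0.11), with only the libraries compared (limma adjusted p = 0.058) and without the 3 set aside (limma adjusted p = 0.16).

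KNOX homeobox genes, whose class I members raise cytokinin in the shoot meristem, had 3 of 6 tested genes up in M21 and 2 in G27, with 0 down. Over all tested genes 13% rose in M21 and 7.87% in G27. The descriptions do not separate class I from class II, which is expressed in leaves. Nitab4.5_0017496g0010 had 8.36, 9.06 and 9.23 in M21 and 8.81, 9.17 and 8.23 in G27, against 6.11, 6.66 and 6.4 in NC82. Both lines lay above NC82, and it rose by 0.42 (SE 0.08) in M21 and by 0.40 (SE 0.08) in G27 (limma adjusted p = 0.0022 and 0.0045). The G27 call was lost without the 3 libraries set aside (limma adjusted p = 0.05, just above the threshold before rounding).

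Among 13 other histidine kinases, phytochromes and dehydrogenase kinases among them, 2 rose and 3 fell in M21, and 1 rose and 1 fell in G27. This is 38.5% and 15.4% called, against 24.3% and 13.9% of all tested genes. The phytochrome Nitab4.5_0010301g0010, a light receptor, had 4.68, 3.78 and 4.55 in M21 and 3.75, 4.36 and 3.61 in G27, against 6.15, 7.6 and 7.37 in NC82. Both lines lay below NC82, and it fell by 0.59 (SE 0.11) in M21 and by 0.71 (SE 0.11) in G27 (limma adjusted p = 0.0021 and 0.00094). Nitab4.5_0004046g0020, of the family of mitochondrial dehydrogenase kinases, had 23.71 to 25.56 in M21 and 25.0 to 25.98 in G27, against 20.35 to 21.46 in NC82. It rose by 0.24 in M21 and by 0.27 in G27 (limma adjusted p = 0.018 and 0.014). Its M21 call was lost without M21 replicate 1 or 3 or NC82 replicate 2 or 3 (limma adjusted p = 0.058 to 0.082) or the 3 libraries set aside (limma adjusted p = 0.061), and its G27 call without NC82 replicate 2 or 3 (limma adjusted p = 0.06). Nitab4.5_0003998g0020, of the same family, had 1.27, 1.5 and 1.58 in M21 and 2.13, 2.09 and 2.06 in G27, against 2.28, 2.77 and 2.52 in NC82. It fell by 0.52 (SE 0.09) in M21 against NC82 (limma adjusted p = 0.0023), a call kept under all 13 alternatives. The gene was also lower in M21 than in G27 (log2 change -0.34, limma adjusted p = 0.042). The GAF-domain kinase Nitab4.5_0000116g0290 had 4.41, 4.01 and 4.19 in M21 and 3.4, 3.21 and 2.84 in G27, against 2.92, 2.9 and 3.38 in NC82. It rose by 0.36 (SE 0.09) in M21 against NC82 (limma adjusted p = 0.014). This call was lost without M21 replicate 1 or NC82 replicate 2 (limma adjusted p = 0.058 to 0.06) and without the 3 set aside (limma adjusted p = 0.089). The gene was also higher in M21 than in G27 (log2 change 0.33, limma adjusted p = 0.037). Leaving out any 1 of the M21 or G27 libraries ended the M21 against G27 call of Nitab4.5_0003998g0020 (limma adjusted p = 0.061 to 0.15). Any of them except G27 replicate 1 ended that of Nitab4.5_0000116g0290 (limma adjusted p = 0.056 to 0.13). Both M21 against G27 calls were also lost with no filter on low values, with only the libraries compared and without the 3 set aside (limma adjusted p = 0.054 to 0.12).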

How the data were processed

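Young leaf RNA of M21, G27 and NC82 was sequenced as paired-end libraries made from total RNA, per the labels' protocols. HISAT2, StringTie and RSEM are named in the submitters' processing notes, with no role, version or setting. Build, gene models and strandedness were not given in the sources used here. Values in the deposited table are a normalized expression signal made by the authors, which could be TPM or FPKM. The table's header names no unit, and no counts are in it, so depth is known only as relative estimates from low values and no counting intervals can be given. The deposited columns of genotype means equalled the library means to within 3.3e-07 and were not used.

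Genes that reached a value of 1 in 3 or more libraries were fitted together on log2(value + 1) with limma 3.58.1 (mean trend, 3 comparisons) in R 4.3.3. Two-sided p-values received a Benjamini-Hochberg adjustment over all 33188 genes, with calls made at an adjusted p under 0.05. The steps were tested on simulated data. Low pseudocounts, no filter, median-ratio scaling, a replicate block, single comparisons and left-out libraries were tried as alternatives. Tables and figures used Python 3.11.15, numpy 2.4.6, pandas 2.3.3 and matplotlib 3.10.9.

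The members, lists and tests were chosen with earlier results of these data known. Named are all cytokinin-described genes, every other member called in any comparison, the 3 members with the highest mean in each class, and for each other list the called gene with the smallest p per direction and comparison. Of the other lists, the isopentenyltransferase and CHASE patterns were narrowed once they were seen to match the word transcription and an unrelated enzyme. The CHASE, purine permease and lysine decarboxylase patterns matched no further gene. The labels number replicates in every genotype, but same-numbered libraries did not deviate together in every pair of genotypes, so the numbers were not taken as pairs.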

Additional observations from a re-analysis of the deposited data

How the results depend on the processing

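Each call named in the text kept its direction under the 13 alternatives run for it. Of the 15 members called in M21 against NC82, 6 stayed called under all of them, as did 10 of 15 in G27 against NC82 and 2 of 4 in M21 against G27. Leaving out 1 library at a time gave 10 to 18 members called in M21, 10 to 13 in G27 and 3 to 5 between the lines. In G27 the 2 metabolism genes that rose became 0 or 1 in each of these fits. With the replicate block, limma called 15, 12 and 5 members in the 3 comparisons, and the G27 calls of Nitab4.5_0000446g0210, Nitab4.5_0001790g0010 and Nitab4.5_0002312g0040 were lost (limma adjusted p = 0.051, 0.056 and 0.065), as were the M21 against G27 calls of Nitab4.5_0004039g0030, Nitab4.5_0003998g0020 and Nitab4.5_0000116g0290 (limma adjusted p = 0.058, 0.068 and 0.068). Deviations of same-numbered libraries from their genotype means correlated at -0.215 to 0.343 across genes, over 0.1 in 3 of 9 pairs of libraries, and the numbers were not taken to pair the samples. For the other pathway genes, leaving out 1 library gave 9 to 15 calls in M21 against NC82 (16 with all), 3 to 6 in G27 against NC82 (6 with all) and 1 to 3 in M21 against G27 (5 with all). The last count was 2 with no filter on low values, 2 with the replicate block, 2 with only the libraries compared, and 1 without the 3 libraries set aside together, a setting that left 2 in G27 against NC82. The cause of these differences was not tested. Depth is not given, so no limit of detection can be stated for genes listed at 0.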
